A study of Mus musculus with 8 samples.

Results

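The matrix metalloproteinases Mmp2, Mmp8, Mmp9, Mmp12, Mmp13, Mmp14 and Mmp19 and the tissue inhibitors Timp1, Timp2 and Timp3 were examined in IL-6-exposed mouse macrophages of the genotypes IL6raKO and Ctrl. The 10 genes were chosen by name, and each had 1 probe set with a single gene symbol, among 19938 genes measured on the arrays. The genotype IL6raKO carries floxed Il6ra alleles together with LysMCre tg/wt, a Cre recombinase driven from the lysozyme 2 locus in myeloid cells. The genotype Ctrl carries the same floxed alleles, and no Cre is listed for it. In both groups bone marrow cells were grown for 10 days with M-CSF (10 ng/ml), starved of serum overnight and exposed for 4 h to murine IL-6 at 50 ng/ml. Each group had 4 arrays, named biological replicates 1 to 4. The ages of the mice were not given. No array came from cells without IL-6, and Cre is listed for IL6raKO alone, so loss of the receptor and other effects of Cre cannot be told apart. The labels do not say that each replicate was a separate animal, so p-values reflect the spread among 8 samples that may be partly technical.

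Matrix metalloproteinases are zinc-dependent endopeptidases that cut collagens, elastin, other matrix proteins and many cytokines and receptors at or near the cell surface. Most are made as inactive proenzymes and are switched on when the propeptide is removed, and TIMPs bind the active site of the mature enzyme and block it. Macrophages are a known source of several of these enzymes in inflamed tissue, in tumours and in vessel walls. RNA levels, which the arrays measure, do not report the activation step.

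The targeted gene was checked first. The log2 expression of Il6ra was 7.75, 8.10, 7.91 and 7.92 in IL6raKO replicates 1 to 4, against 8.43, 8.40, 8.40 and 8.45 in Ctrl replicates 1 to 4. All 4 IL6raKO values lay below all 4 Ctrl values, with a difference of -0.50 (SE 0.07) and a limma adjusted p of 0.0607 over all genes. Where its probes lie relative to the floxed exons is unknown here, so these values do not give the extent of deletion. Ctrl replicate 4 stood apart from the other arrays: it lay at 21.55 on the first principal component, and the other 7 arrays between -6.60 and 4.82. All 7 measured macrophage markers were at a log2 expression of 8.81 to 12.97 on every array, among them Adgre1 (F4/80), Csf1r and Cd68. Of the 7, 0 had a limma adjusted p under 0.05, and 1 (Fcgr1) was lower at an unadjusted p under 0.05. Their differences were below 0 for 3 and above for 4.

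None of the 10 genes passed the test between genotypes. With limma's p adjusted over all genes, 0 of the 10 lay under 0.05, where 0.0301% of all genes did (0.0301% lower and 0% higher). At an unadjusted p under 0.05 the count was 1 of 10, for Mmp13, beside 7.28% of all genes. In the lower direction it was 0 of 10 beside 4.54% of all genes, and in the higher direction 1 of 10 beside 2.74%. The groups did not overlap for 0 of the 10 genes, beside 4.44% of all genes. That share is too small for 0 of 10 to set these genes apart. The exact two-sided permutation test over samples, whose smallest possible p is 0.0286 with 4 against 4, gave its lowest p among the 10 genes at 0.0857, again for Mmp13. Of the 10 differences, 6 were below 0 and 4 above, where 54.2% of all genes were below 0. Their median was -0.05 on the log2 scale, against -0.01 over all genes. These shares over all genes apply to the counts of every gene list in this report. Across the 10 genes the 95% confidence intervals reached from 75.5% (Timp3) to 138% (Mmp14) of the Ctrl level, and single genes had narrower ones, given with each gene. Lack of a call does not show equal levels.

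**Figure D1:**
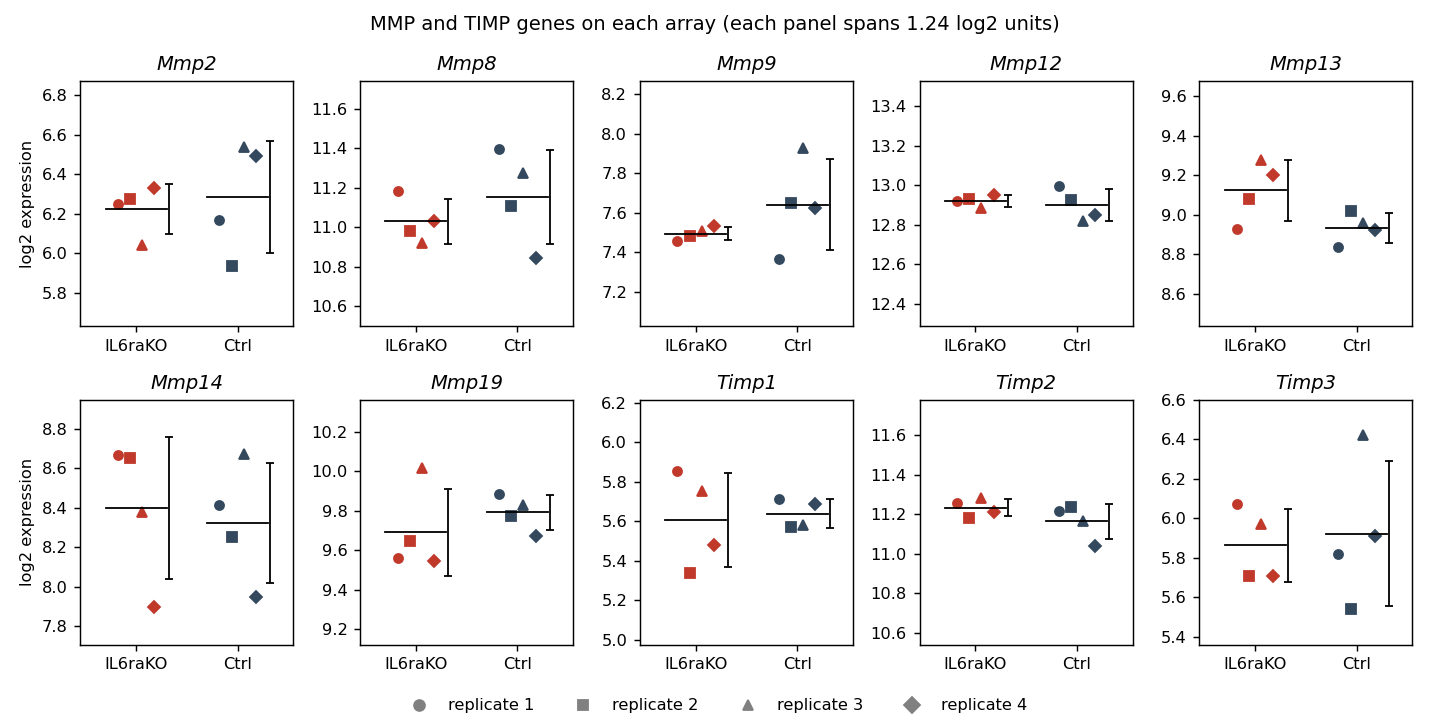
Log2 expression of the 10 genes (vertical axis) on each IL6raKO array (red) and each Ctrl array (dark blue). Marker shapes give the replicate number, the horizontal lines are group means and the bars at their right are SDs (n = 4). The groups overlap in every panel, and the widest scatter is that of Mmp14.

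Among the collagenases, which cut fibrillar collagen within its triple helix, Mmp13 had the lowest p of the 10 genes. Mmp13, collagenase 3, was at a log2 expression of 8.93, 9.08, 9.28 and 9.20 in IL6raKO replicates 1 to 4, against 8.84, 9.02, 8.96 and 8.92 in Ctrl replicates 1 to 4. IL6raKO replicates 2, 3 and 4 were above every Ctrl array, and IL6raKO replicate 1 lay within the Ctrl values. The means were 9.12 ± 0.15 in IL6raKO and 8.93 ± 0.08 in Ctrl (SD, n = 4 each). The difference was 0.19 (SE 0.08, 95% confidence interval 0.01 to 0.37), or 114% of the Ctrl level, with an unadjusted p of 0.0399 and a limma adjusted p of 0.67 over all genes.

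Mmp8, the collagenase first known from neutrophils and also made by macrophages, lay on the other side of 0. Its log2 expression was 11.18, 10.98, 10.92 and 11.03 in IL6raKO replicates 1 to 4, against 11.39, 11.11, 11.27 and 10.85 in Ctrl replicates 1 to 4. The IL6raKO values sat inside the Ctrl range, whose lowest array was Ctrl replicate 4. The difference was -0.12 (SE 0.11, 95% confidence interval -0.36 to 0.11, limma adjusted p = 0.824). Without Ctrl replicate 4 it was -0.23, with an unadjusted p of 0.0275 and an adjusted p of 0.738, and without Ctrl replicate 1 it was -0.05. The 13 markers of neutrophils and their precursors, Ly6g, Ngp, Camp and Ltf among them, lay between 4.58 and 7.63 on all arrays, and 0 of 13 were called (1, Mpo, lower at an unadjusted p under 0.05). Of the 13, 9 had a difference below 0 and 4 above. Their linear levels, 2 raised to the log2 value, summed to 729 to 1113 in IL6raKO and 859 to 1106 in Ctrl. Ctrl replicate 4, lowest for Mmp8, had the highest median deviation of these markers, 0.18. Their part in the Mmp8 values was not tested.

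Of the 7 members with a promoter window from RefSeq (GRCm38.p6), Mmp13 and Mmp12 were those whose windows hold the AP-1 motif through which Fos and Jun proteins are known to act on MMP genes, and their windows are printed to show it. Each window runs 5′ to 3′ on the plus strand from 250 bases before to 50 bases after the annotated start, and the capitals mark TGANTCA, which reads the same on both strands.
Mmp13, chr9:7272264-7272563: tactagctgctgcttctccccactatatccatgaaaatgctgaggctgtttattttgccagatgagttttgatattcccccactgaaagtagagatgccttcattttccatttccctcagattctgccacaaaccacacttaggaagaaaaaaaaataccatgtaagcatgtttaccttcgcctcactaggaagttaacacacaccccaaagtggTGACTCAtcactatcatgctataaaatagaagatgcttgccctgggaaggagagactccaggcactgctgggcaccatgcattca
Mmp12, chr9:7347124-7347423: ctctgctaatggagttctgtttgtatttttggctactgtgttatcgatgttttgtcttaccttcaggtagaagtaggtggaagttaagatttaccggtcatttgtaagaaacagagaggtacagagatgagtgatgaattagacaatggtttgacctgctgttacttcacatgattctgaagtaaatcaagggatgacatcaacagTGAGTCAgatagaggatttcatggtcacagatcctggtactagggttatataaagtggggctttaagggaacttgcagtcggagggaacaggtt
The motif starts 35 bases upstream of the Mmp13 start and 44 bases upstream of this Mmp12 start. A second annotated Mmp12 start had no match. Windows were found for 7 of the 10 genes (Mmp8, Mmp12, Mmp13, Mmp14, Timp1, Timp2 and Timp3), 8 windows in all, of which 2 held TGANTCA, while 7.81% of all 32851 promoter windows of this length did. The STAT motif TTCNNNGAA, also the same on both strands, was in 0 of the 8 windows and in 8.3% of all windows. A match in letters does not show a site in use, and no match says only that these letters are not in the window.

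The Fos and Jun family genes, read on the same arrays, had differences of both signs. Of the 7 family genes in the list, 0 were called, and 3 had a difference below 0 (Fosb -0.10, Fosl1 -0.12 and Fosl2 -0.08) and 4 above (Fos, Jun, Junb 0.05 and Jund 0.02). Fos was at a log2 expression of 7.42 ± 0.09 in IL6raKO and 7.12 ± 0.10 in Ctrl (SD, n = 4 each), a difference of 0.30 (SE 0.07, limma adjusted p = 0.477). Jun was at 8.48 ± 0.07 in IL6raKO and 8.28 ± 0.10 in Ctrl (SD, n = 4 each), a difference of 0.21 (SE 0.07, limma adjusted p = 0.616). For Fos and Jun the 4 IL6raKO values lay above the 4 Ctrl values, where 4.44% of all genes had groups that did not overlap. Their unadjusted limma p was 0.00154 (Fos) and 0.0121 (Jun), and neither passed over all genes. The other family genes had an unadjusted limma p from 0.198 (Fosl1) to 0.823 (Jund). Whether Mmp13 is tied to them was not tested.

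Mmp12, the macrophage elastase, was close between the genotypes. Its log2 expression was 12.92, 12.93, 12.88 and 12.95 in IL6raKO replicates 1 to 4, against 13.00, 12.93, 12.82 and 12.85 in Ctrl replicates 1 to 4. All IL6raKO values fell inside the Ctrl range. The difference was 0.02 (SE 0.06, 95% confidence interval -0.11 to 0.16, limma adjusted p = 0.955), which bounds the IL6raKO level between 92.5% and 112% of Ctrl. This was the narrowest interval among the 10 genes. With each array centred on its 75th percentile the difference was -0.01, so its sign is not settled.

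The gelatinases Mmp2 and Mmp9 digest denatured collagen and the type IV collagen of basement membranes. Mmp9 was at a log2 expression of 7.45, 7.48, 7.51 and 7.53 in IL6raKO replicates 1 to 4, against 7.36, 7.65, 7.93 and 7.62 in Ctrl replicates 1 to 4. The 4 IL6raKO arrays lay close together within the Ctrl range, which ran between Ctrl replicate 1 and Ctrl replicate 3. The means were 7.49 ± 0.03 in IL6raKO and 7.64 ± 0.23 in Ctrl (SD, n = 4 each), and the difference was -0.15 (SE 0.10, 95% confidence interval -0.37 to 0.07, limma adjusted p = 0.768). It was -0.05 without Ctrl replicate 3 and -0.24 without Ctrl replicate 1, so single Ctrl arrays set its size.

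Mmp2 was at a log2 expression of 6.25, 6.28, 6.04 and 6.33 in IL6raKO replicates 1 to 4, against 6.17, 5.94, 6.54 and 6.49 in Ctrl replicates 1 to 4. The Ctrl arrays enclosed all IL6raKO arrays, with Ctrl replicates 3 and 4 highest and Ctrl replicate 2 lowest. The difference of -0.06 (SE 0.12, 95% confidence interval -0.33 to 0.21, limma adjusted p = 0.944) was 0.01 without Ctrl replicate 4 and 0.03 without Ctrl replicate 3.

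Mmp14, a membrane-anchored enzyme that activates the proenzyme of Mmp2 with the help of Timp2, varied most. Its log2 expression was 8.67, 8.65, 8.38 and 7.90 in IL6raKO replicates 1 to 4, against 8.42, 8.25, 8.67 and 7.95 in Ctrl replicates 1 to 4. Replicate 4 was the lowest array in both genotypes, and the range within a group was 0.77 in IL6raKO and 0.73 in Ctrl. The difference was 0.08 (SE 0.18, 95% confidence interval -0.32 to 0.47, limma adjusted p = 0.95), and it was -0.05 without Ctrl replicate 4.

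The genes with the pattern most like that of Mmp14 were Cd209f, Zfp947 and Map7d3. Likeness was the root mean square difference of log2 values over the 8 arrays, each gene centred on its mean, and came to 0.10 for Cd209f, 0.15 for Zfp947 and 0.15 for Map7d3, where the median over 19937 genes was 0.31. Cd209f, too, was lowest in replicate 4 of each genotype, at 3.65 in IL6raKO and 3.87 in Ctrl. The measure is a description, with no test.

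Mmp19, a soluble enzyme of the basement membrane and of myeloid cells, was at a log2 expression of 9.56, 9.65, 10.01 and 9.54 in IL6raKO replicates 1 to 4, against 9.89, 9.77, 9.83 and 9.67 in Ctrl replicates 1 to 4. IL6raKO replicates 1, 2 and 4 lay below every Ctrl array, and IL6raKO replicate 3 lay above every one. The difference was -0.10 (SE 0.10, 95% confidence interval -0.32 to 0.12, limma adjusted p = 0.852). Without IL6raKO replicate 3 it was -0.21, with an unadjusted p of 0.0184 and an adjusted p of 0.855. The same array was highest for Mmp13. The 7 osteoclast markers had 0 calls (0 at an unadjusted p under 0.05), with 3 differences below 0 and 4 above. Ctsk (9.46) and Acp5 (9.52) were highest of all arrays in IL6raKO replicate 3. Calcr, Ocstamp, Dcstamp, Oscar and Atp6v0d2 had their highest values on other arrays. The median deviation of the 7 was 0.06 in IL6raKO replicate 3. Their summed linear level was 8814 to 9110 in IL6raKO and 8083 to 9345 in Ctrl, and Atp6v0d2, at a log2 expression of 12.74 to 12.96, dominates this sum. The part of these markers in the Mmp19 and Mmp13 values was not tested.

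The inhibitors did not separate the genotypes either. Timp1, an inducible inhibitor and a known target of IL-6 family cytokines in other cell types, was at a log2 expression of 5.85, 5.34, 5.75 and 5.48 in IL6raKO replicates 1 to 4, against 5.71, 5.57, 5.58 and 5.69 in Ctrl replicates 1 to 4. The IL6raKO arrays lay on both sides of the Ctrl arrays. The difference was -0.03 (SE 0.10, 95% confidence interval -0.26 to 0.20, limma adjusted p = 0.967), and it was 0.06 without IL6raKO replicate 2. Timp1 lay at percentile 30.7 of mean level among all genes, where RMA compresses differences, so a change in a dim probe set may be understated. Timp3, at percentile 37.3, and Mmp2, at percentile 46.1, were also below the median level.

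Timp2, which inhibits most MMPs and also links the Mmp2 proenzyme to Mmp14, was at a log2 expression of 11.26, 11.18, 11.28 and 11.21 in IL6raKO replicates 1 to 4, against 11.22, 11.24, 11.17 and 11.04 in Ctrl replicates 1 to 4. IL6raKO replicates 1 and 3 were above all Ctrl arrays, and Ctrl replicate 4 was the lowest of the 8. The difference was 0.07 (SE 0.06, 95% confidence interval -0.07 to 0.21, limma adjusted p = 0.836), and 0.03 without Ctrl replicate 4.

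Timp3, a matrix-bound inhibitor that also blocks the sheddase Adam17, was at a log2 expression of 6.07, 5.71, 5.97 and 5.71 in IL6raKO replicates 1 to 4, against 5.82, 5.54, 6.42 and 5.91 in Ctrl replicates 1 to 4. Ctrl replicate 3 was the highest array and Ctrl replicate 2 the lowest, with all IL6raKO values in between. The difference was -0.06 (SE 0.16, 95% confidence interval -0.41 to 0.29, limma adjusted p = 0.956), and 0.11 without Ctrl replicate 3.

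**Figure D2:**
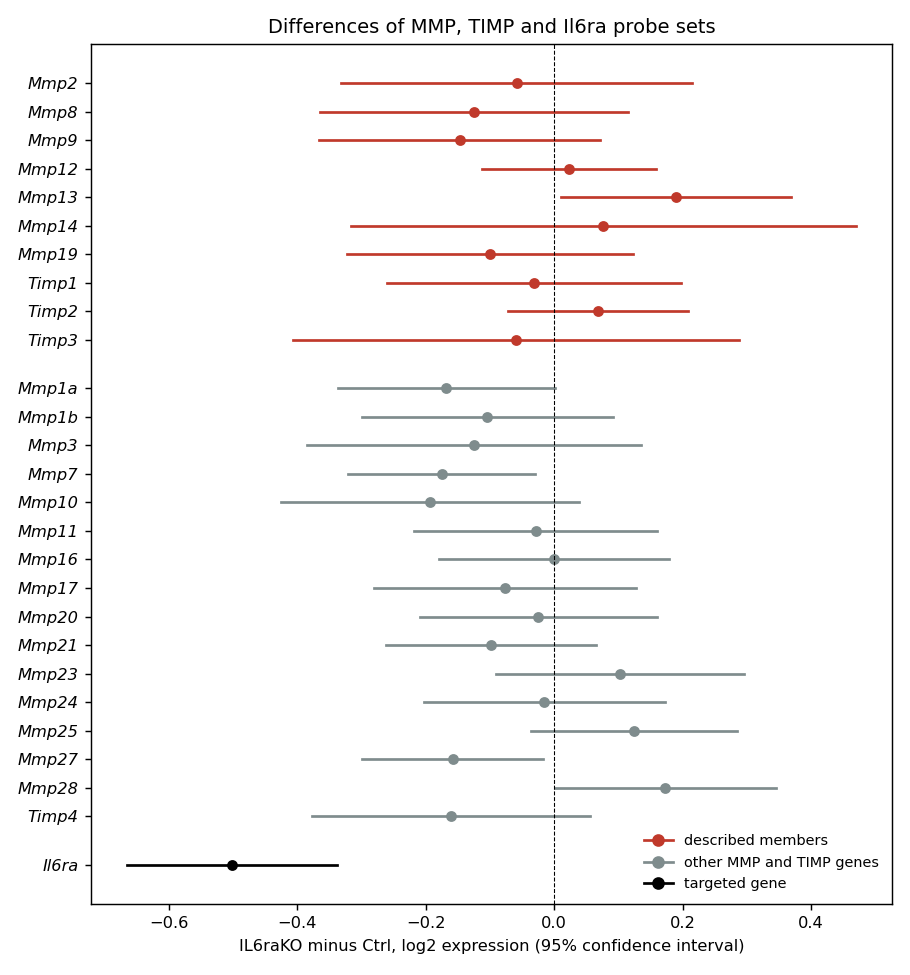
Difference of log2 expression, IL6raKO minus Ctrl (horizontal axis), for the 10 genes, the 16 other measured MMP and TIMP genes and the targeted gene Il6ra, with 95% confidence intervals from limma (n = 4 arrays a group). Among the 10 genes the interval of Mmp13 alone leaves out 0, and none reaches the difference of -0.50 seen for Il6ra.

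Scatter between arrays of 1 genotype was larger for these genes than for the typical gene on the array. The median SD within groups was 0.17 on the log2 scale for the 10 genes and 0.11 over all genes, and 8 of the 10 had an SD above that all-gene median. Ctrl replicate 1 was the highest Ctrl array for Mmp8, Mmp12, Mmp19 and Timp1, Ctrl replicate 3 the highest for as many (Mmp2, Mmp9, Mmp14 and Timp3), and Ctrl replicate 4 the lowest for Mmp8, Mmp14, Mmp19 and Timp2. Ctrl replicate 4 was the highest Ctrl array for 0 of the 10 genes. In IL6raKO replicates 1 to 4 the median deviation of the 8 mast cell and basophil markers was -0.38, -0.05, -0.08 and 0.21. In Ctrl replicates 1 to 4 it was -0.21, 0, 0.10 and 0.39. Replicate 1 was the lowest and replicate 4 the highest array in each genotype. All 8 markers had a difference below 0, where 54.2% of all genes did, with a median of -0.15 against -0.01 over all genes. These markers had 0 calls (0 at an unadjusted p under 0.05) and summed to a linear level of 594 to 1051 in IL6raKO and 737 to 1432 in Ctrl.

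Stromal cells make Mmp2, Mmp13, Timp1 and Timp3 in many tissues, and their markers were read beside them. The 10 stromal markers, Col1a1, Col3a1, Dcn, Lum and Pdgfra among them, had 0 calls (1, Lum, lower at an unadjusted p under 0.05), and their summed linear level was 858 to 1334 in IL6raKO and 1005 to 1341 in Ctrl. Of the 10, 7 had a difference below 0 and 3 above. The median deviation of the list was 0.05, -0.09, 0.03 and -0.08 in IL6raKO replicates 1 to 4, against -0.03, -0.03, 0.05 and 0.02 in Ctrl replicates 1 to 4. This median hides wider scatter of Sparc, the brightest of the list. Sparc was at 8.92, 7.10, 8.34 and 8.01 in IL6raKO replicates 1 to 4, against 7.96, 7.85, 8.83 and 8.28 in Ctrl replicates 1 to 4. Its highest and lowest arrays in each group were those of Timp3, while the other markers of the list differed in at least 1 of them. A link of Sparc to Timp3 was not tested. A share of such cells in the RNA was not tested, and in bulk cultures fewer cells of a type and less RNA per cell cannot be told apart. The 7 dendritic cell markers had 0 calls (1, Zbtb46, lower at an unadjusted p under 0.05), 5 differences below 0 and 2 above, and summed to 581 to 606 in IL6raKO and 585 to 666 in Ctrl.

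**Figure D3:**
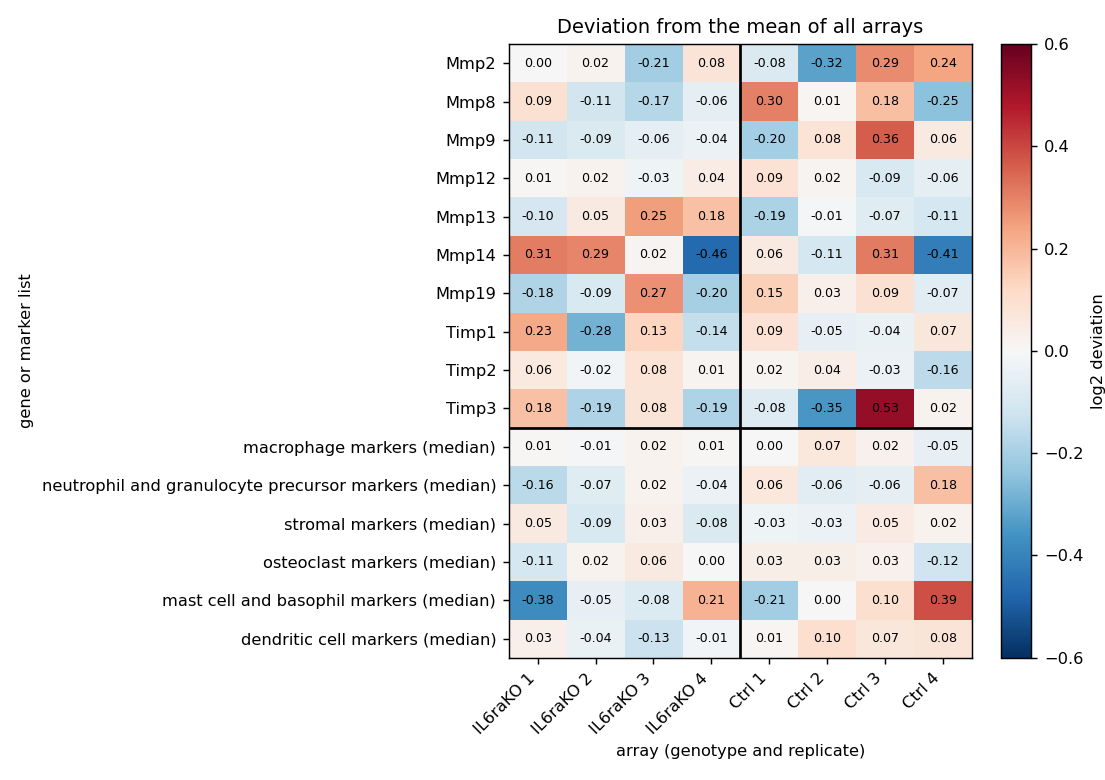
Deviation of log2 expression from the mean of all 8 arrays (colour and printed value) for the 10 genes, and the median of that deviation over each list of cell type markers, on each array. Ctrl replicate 3 is high for Timp3 (0.53) and Mmp9 (0.36), and replicate 4 is low for Mmp14 in both genotypes. Mast cell and basophil markers are highest in replicate 4 of each genotype (0.21 in IL6raKO and 0.39 in Ctrl).

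The balance of an enzyme and its inhibitor was read within each array as a difference of log2 values, whose size depends on the probe sets and which serves only to compare arrays. Mmp9 minus Timp1 was 1.60, 2.14, 1.75 and 2.05 in IL6raKO replicates 1 to 4, against 1.65, 2.08, 2.35 and 1.93 in Ctrl replicates 1 to 4. Mmp2 minus Timp2 averaged -5.01 ± 0.16 in IL6raKO and -4.88 ± 0.36 in Ctrl (SD, n = 4 each). Mmp14 minus Timp2 averaged -2.83 ± 0.36 in IL6raKO and -2.84 ± 0.26 in Ctrl (SD, n = 4 each). For all 3 pairs the groups overlapped, and the differences of the means, -0.12, -0.13 and 0.01 in that order, were smaller than the SD within the more variable group.

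**Figure D4:**
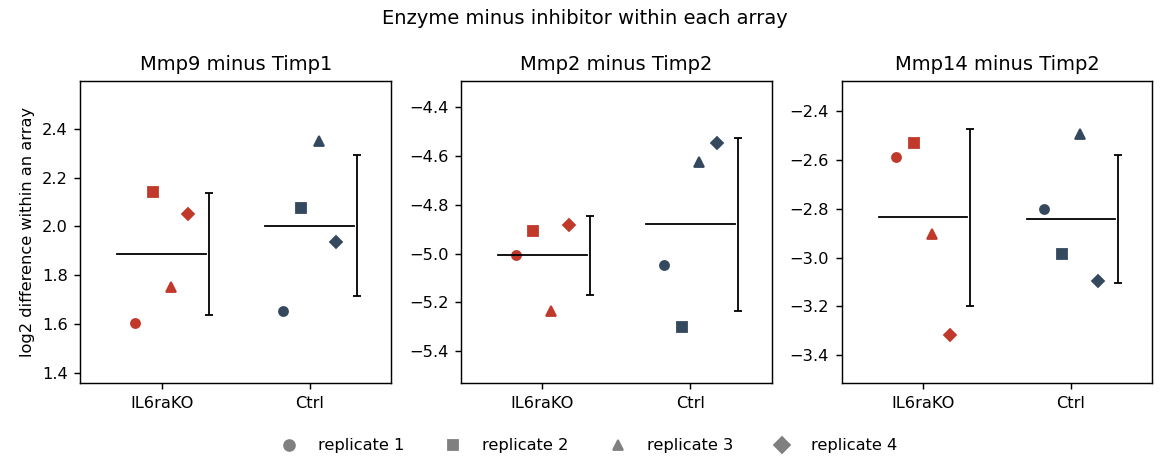
Difference of log2 expression between an enzyme and an inhibitor that binds it (vertical axis), on each IL6raKO array (red) and each Ctrl array (dark blue), for Mmp9 minus Timp1, Mmp2 minus Timp2 and Mmp14 minus Timp2. Horizontal lines are group means and bars are SDs (n = 4), and the groups overlap in all 3 panels.

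Of 16 other measured MMP and TIMP genes, 0 were called, with 13 below 0 in IL6raKO and 3 above, where 54.2% of all genes were below 0. At an unadjusted p under 0.05, 2 were lower and 1 (Mmp28) higher, beside 4.54% of all genes lower and 2.74% higher. Their median difference was -0.09, against -0.01 over all genes. The lowest p-values were those of Mmp7 and Mmp27. Mmp7, matrilysin, was at a log2 expression of 6.58 ± 0.04 in IL6raKO and 6.75 ± 0.10 in Ctrl (SD, n = 4 each), a difference of -0.18 (SE 0.07, limma adjusted p = 0.655). Mmp27 was at 9.70 ± 0.03 in IL6raKO and 9.86 ± 0.10 in Ctrl (SD, n = 4 each), a difference of -0.16 (SE 0.06, limma adjusted p = 0.669). Both had groups that overlapped.

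Mmp8, Mmp12 and Mmp13 lie in a run of MMP genes on chromosome 9. In the RefSeq gene order of GRCm38.p6 it holds 10 measured genes with no other protein-coding gene between them, in the order Mmp13, Mmp12, Mmp1b, Mmp3, Mmp1a, Mmp10, Mmp8, Mmp27, Mmp20 and Mmp7. The first 2 of these, Mmp13 and Mmp12, had differences above 0, and the other 8 had differences below 0, from -0.02 for Mmp20 to -0.19 for Mmp10. Of all genes, 54.2% were below 0. The difference of Mmp12 was only 0.02 and turned to -0.0051 when centred on the 75th percentile, so its sign is not settled. Several of the 8 were dim: Mmp1b lay at percentile 2.2 of mean level among all genes, Mmp1a at 7.4, Mmp3 at 21.7 and Mmp20 at 27.9. None of the 10 passed the test, and Mmp1a and Mmp1b are close copies whose probes may share signal.

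Genes that activate, dock or clear MMPs were not called. Of 16 measured, 0 passed over all genes, with 6 below 0 and 10 above. At an unadjusted p under 0.05, 2 (Plau and Plaur) were higher, beside 2.74% of all genes. Plau, the urokinase that turns plasminogen into plasmin, a known activator of MMP proenzymes, was at a log2 expression of 9.47, 9.26, 9.30 and 9.37 in IL6raKO replicates 1 to 4, against 8.84, 8.98, 8.92 and 8.95 in Ctrl replicates 1 to 4. Its receptor gene Plaur was at 7.77 ± 0.06 in IL6raKO and 7.40 ± 0.19 in Ctrl (SD, n = 4 each). For both, all IL6raKO arrays were above all Ctrl arrays, and 4.44% of all genes had groups that did not overlap. The differences were 0.43 (SE 0.07, limma adjusted p = 0.078) for Plau and 0.36 (SE 0.09, limma adjusted p = 0.508) for Plaur, and Plau was called with a trended and robust variance model (adjusted p = 0.00762).

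Matrix proteins that MMPs cut did not pass either, with 0 of 17 called, where 0.0301% of all genes were. Of the 17, 13 were below 0 and 4 above, where 54.2% of all genes were below 0. At an unadjusted p under 0.05, 1 (Lamc1) was lower, beside 4.54% of all genes. The median difference was -0.04. The lowest p-values were those of Lamc1, a laminin chain of basement membranes (difference -0.21, SE 0.08, limma adjusted p = 0.628), and of Vtn, vitronectin (difference -0.18, limma adjusted p = 0.715). Of 15 measured transcription regulators of MMP genes, 1 was called, Stat3, which transmits the IL-6 signal, beside 0.0301% of all genes. At an unadjusted p under 0.05, 3 were higher, Fos, Jun and Pparg, beside 2.74% of all genes. Stat3 was at a log2 expression of 9.20 ± 0.10 in IL6raKO and 9.77 ± 0.06 in Ctrl (SD, n = 4 each) and fell by 0.57 (SE 0.07, limma adjusted p = 0.0348). The difference lay between -0.62 and -0.54 with any 1 of the 8 arrays left out and was -0.57 with the replicate number as a block. The call was nevertheless lost with any array left out (adjusted p between 0.0771 and 0.166), with that block (adjusted p = 0.161) and with all probe sets tested (adjusted p = 0.258).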

How the data were processed

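Per the labels' protocols, RNA of 8 samples was made into biotin-labelled cDNA with an Affymetrix whole-transcript kit for arrays. The authors deposited log2 expression values, 1 per probe set and array (35556 probe sets, 1.96 to 14.2), and the submitters' processing notes name RMA and R 2.13.1. The log2 scale was read from the range, and build and further filters are not stated. RMA normalizes between arrays and compresses dim differences. There is no read depth, and the number of arrays limits precision.

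Probe sets were named through GEO's platform annotation. Of these, 21789 had 1 symbol, 1621 several and 12146 none. The brightest probe set was kept per gene, which gave 19938 genes. Each of the 10 members had 1 probe set. IL6raKO minus Ctrl was fitted with limma 3.58.1 (R 4.3.3) on all 8 arrays, without covariates, with Benjamini-Hochberg adjustment over all genes and a two-sided threshold of 0.05. On simulated data for this comparison (19938 genes), it recovered 73% of 100 genes changed by 0.5 and 98% of 100 changed by 1, and 7.6% of all its calls were false. These shares do not carry over to the real data, where fewer genes were called and the threshold was stricter. The members and lists were chosen with earlier results of these data known. Named beyond the 10 members were Il6ra and, per list, called genes or the 2 of lowest p; Mmp28, Pparg, other Fos and Jun genes and marker examples were chosen after their values were seen. Listed genes without a single-symbol probe set in the tables used here were not analysed. Alternatives were another variance model, a replicate block, filters at the 25th percentile and the median, 2 normalizations, array weights, other uses of probe sets and each array left out.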

Additional observations from a re-analysis of the deposited data

How the results depend on the processing

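No alternative called any of the 10 genes, and their lowest adjusted p lay between 0.505 and 0.855 over the 17 settings. Mmp8, Mmp9, Mmp13, Mmp19 and Timp2 kept the sign of their difference in all settings run. With 1 array left out, Mmp2 lay between -0.175 and 0.0266, Mmp12 between -0.004 and 0.0564, Mmp14 between -0.0487 and 0.244, Timp1 between -0.114 and 0.0571 and Timp3 between -0.186 and 0.106, so that each changed sign. Mmp12 was also -0.0051 when centred on the 75th percentile. The count of called genes, 6 over all genes, was 22 with a trended and robust variance, 11 above the median level, 11 above the 25th percentile, 3 with quantile normalization applied again to all probe sets, 0 with all probe sets tested, 0 with the replicate block, and 0 to 1 with an array left out. The count in the wider lists, 1 (Stat3), was 2 (Stat3 and Plau) with the trended variance and with either filter, 0 with all probe sets, 0 with the replicate block and 0 with any array left out. Leaving out an array also lowers the number of samples; for the others the cause was not tested. Over all genes, deviations from the group means correlated between -0.01 and 0.04 for arrays of the same replicate number. Such a value over all genes cannot show whether some genes vary with the replicate number. Mmp14 was lowest in replicate 4 of both genotypes. The median deviation of the mast cell and basophil markers was lowest in replicate 1 and highest in replicate 4 of both. The replicate block left the difference of Mmp13 at 0.19 (limma adjusted p = 0.66, unadjusted p = 0.0312). The unadjusted limma p of Mmp13 did not stay under 0.05 in all settings. It was 0.0575 with quantile normalization again, 0.0733 when centred on the 75th percentile and 0.056 with all probe sets tested. With 1 array left out it lay between 0.0069 and 0.126. Mmp2, Timp1 and Timp3 fell below the filter at the median and have no value there.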
